A study of Homo sapiens with 12 samples.

Results

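The genes of plasminogen activation were followed in T24 cells, a widely used line grown from a human bladder carcinoma, after the U11 small nuclear RNA had been targeted or overexpressed. The set held 5 genes of the 60504 in the deposited tables, taken by gene name: the activators PLAU and PLAT, the receptor PLAUR and the inhibitors SERPINE2 and SERPINB2. RNA sequencing covered 12 libraries, all labelled bladder cancer cell line T24. The knockout comparison set 2 libraries labelled knockout U11 against 2 untreated libraries of the same sample code series (R18051). The overexpression comparison set 6 libraries labelled overexpression U11 against 2 untreated libraries, over the code series R17018 and R18019, and each of these series held 1 library of line labels 79, 86 and 87 and 1 untreated library. The study's methods describe Cas9 cutting with a pair of guides on U11 and selection of a single cell clone for the knockout, and stable transfection of a pcDNA-U11 plasmid with selection of clones for overexpression. What the line labels stand for is not stated, and nothing in the labels says whether libraries of a group came from separate cultures, so the p-values measure only the spread between these libraries.

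Plasminogen is a circulating precursor that becomes plasmin, a protease that dissolves fibrin and degrades other matrix proteins. PLAU encodes urokinase, the activator that works mainly at the cell surface, and PLAT encodes tissue-type plasminogen activator, best known for dissolving clots. PLAUR encodes the membrane-anchored urokinase receptor, which concentrates urokinase on the cell surface. SERPINE2 (protease nexin 1) and SERPINB2 (plasminogen activator inhibitor type 2) are serpins, inhibitors that trap their target protease in a covalent complex, and both inhibit urokinase. In bladder cancer the urokinase system has been studied mainly for its part in invasion.

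The sequences just before the transcription start are shown for PLAU, PLAUR, SERPINE2 and SERPINB2, and PLAT was left out. Each run holds 250 bases 5′ to 3′ on the gene's strand, taken from RefSeq (GRCh38.p14), with capitals marking matches on either strand to TGANTCA (the AP-1 site), TATAAA (the TATA box) or GGGCGG (the GC box). No match of one motif overlapped a match of another. The windows lie at chr10:73910882-73911131 (plus strand), chr19:43670170-43670419 (minus strand), chr2:224038641-224038890 (minus strand) and chr18:63887455-63887704 (plus strand).
PLAU: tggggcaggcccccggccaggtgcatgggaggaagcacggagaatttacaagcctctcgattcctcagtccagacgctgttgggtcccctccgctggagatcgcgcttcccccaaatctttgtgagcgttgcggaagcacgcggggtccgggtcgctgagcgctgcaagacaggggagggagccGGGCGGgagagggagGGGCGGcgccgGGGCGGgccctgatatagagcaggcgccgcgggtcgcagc
PLAUR: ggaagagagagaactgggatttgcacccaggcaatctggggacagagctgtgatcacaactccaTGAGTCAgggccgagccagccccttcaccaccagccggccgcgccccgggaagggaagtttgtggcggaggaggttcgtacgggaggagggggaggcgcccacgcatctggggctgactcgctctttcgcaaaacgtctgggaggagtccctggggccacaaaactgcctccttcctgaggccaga
SERPINE2: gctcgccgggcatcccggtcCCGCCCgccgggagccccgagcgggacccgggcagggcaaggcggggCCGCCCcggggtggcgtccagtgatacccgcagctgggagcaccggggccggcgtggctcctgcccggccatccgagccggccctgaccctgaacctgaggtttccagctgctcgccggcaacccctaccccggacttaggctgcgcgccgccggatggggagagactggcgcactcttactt
SERPINB2: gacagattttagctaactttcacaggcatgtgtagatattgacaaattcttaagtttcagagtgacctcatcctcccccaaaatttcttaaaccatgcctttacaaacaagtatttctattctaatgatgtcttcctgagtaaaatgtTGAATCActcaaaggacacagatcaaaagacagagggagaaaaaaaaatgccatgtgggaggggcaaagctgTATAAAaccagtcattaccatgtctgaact
The PLAU window held 3 GC boxes and the SERPINE2 window held 2. The PLAUR window held 1 AP-1 match, 186 bases before the start, and the SERPINB2 window held 1 AP-1 match 102 bases before the start and a TATA box 30 bases before it. Of 35116 RefSeq promoter windows of the same length, 6.57% held TGANTCA, 10.7% held TATAAA and 42.6% held GGGCGG. The G and C content was 68.8% for PLAU, 63.2% for PLAUR, 75.2% for SERPINE2 and 37.2% for SERPINB2, against a median of 58.0% over all windows. The starts shown for PLAU and SERPINE2 are each 1 of 2 in RefSeq. The SERPINE2 start lies 646 bases from the GENCODE canonical start, whereas the starts of the other 3 genes coincided with theirs. A match describes the letters of the window and is not a binding site.

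All 5 genes lie on separate chromosomes of hg38. PLAU (ENSG00000122861) runs from 73909177 to 73917497 on the plus strand of chromosome 10 and overlaps C10orf55 on the other strand, listed at 0.21 to 1.17 TPM (the transcript abundance of a gene per length, with every library brought to one common total). PLAT (ENSG00000104368) runs from 42175233 to 42207724 on the minus strand of chromosome 8. PLAUR (ENSG00000011422) runs from 43646095 to 43670547 on the minus strand of chromosome 19 and contains the small entry RN7SL368P at 0.54 to 1.48 TPM. SERPINE2 (ENSG00000135919) runs from 223975112 to 224039319 on the minus strand of chromosome 2. SERPINB2 (ENSG00000197632) runs from 63871692 to 63903890 on the plus strand of chromosome 18 and overlaps SERPINB10, listed at 0.0 to 0.1 TPM. GENCODE release 44 lists all 5 as protein-coding genes.

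The sequencing depth, read from the ratio of coverage to FPKM, was 9.07 to 15.33 gigabases of aligned reads per library. U11 itself had 21.4 and 23.8 TPM in the controls of the knockout comparison, and the libraries labelled knockout had 31.6 and 37.4 TPM, so it went against the label and every direction given for these libraries rests on the label. The overexpression controls had 0.033 and 0.623 TPM of U11, line label 79 had 0.183 and 0.412 TPM (between both controls), line label 86 had 3.98 and 3.72 TPM and line label 87 had 61.9 and 53.6 TPM. The sets of libraries differed in kind: 89 histone genes, whose transcripts mostly lack a poly(A) tail, summed to 27661.8 to 34278.5 TPM in the knockout comparison and to 103.4 to 179.8 TPM in the overexpression comparison. TPM levels are therefore read within a comparison, and across the 2 sets only as ratios within a library. Such a ratio removes the scaling of a library but not a difference between kinds of library in how well a gene is captured. That capture was not tested, for U11 or for any other gene. The markers KRT7, KRT8, KRT18 and VIM summed to at least 3160.0 TPM in each library. Of these, VIM went from 1260.0 to 1300.0 TPM in the knockout controls to 2100.0 to 2250.0 TPM under the knockout label, and KRT18 from 373.0 to 400.0 TPM to 270.0 to 292.0 TPM, and their part in the results was not tested. The uroplakins UPK1A, UPK1B, UPK2 and UPK3A of differentiated urothelium summed to at most 0.437 TPM. Leukocyte markers (PTPRC, CD3E, CD14 and ITGAM) summed to at most 1.9 TPM and fibroblast markers (DCN, LUM and PDGFRA) to at most 0.365 TPM. Of the endothelial markers, PECAM1 and VWF stayed under 0.3 TPM, whereas CDH5 had 4.75 and 4.85 TPM in the knockout controls, 0.0293 and 0.0316 TPM under the knockout label, 3.08 and 3.43 TPM in the other controls and 4.17 to 34.1 TPM under the overexpression label. The part of CDH5-expressing cells in the results was not tested, and in bulk RNA fewer expressing cells and less RNA per cell cannot be told apart.

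**Figure D1:**
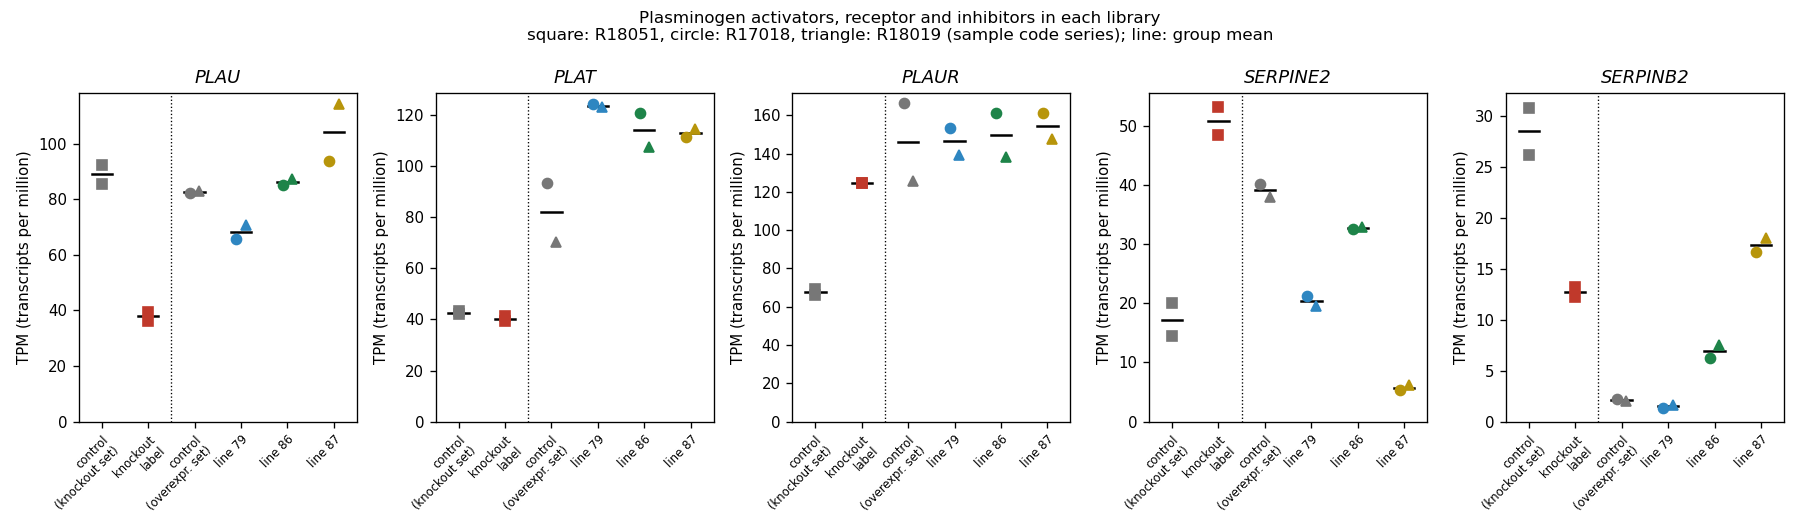
TPM of the 5 genes in each of the 12 libraries (vertical axes start at 0), with a point per library, its shape giving the sample code series, a bar at the group mean, and a dotted line between the knockout and overexpression sets. PLAU and SERPINB2 were lower and PLAUR and SERPINE2 higher under the knockout label, while SERPINE2 and SERPINB2 differed widely between line labels 79, 86 and 87.

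In the libraries labelled U11 knockout, 4 of the 5 genes were differentially expressed and moved in both directions, with one activator and one inhibitor lower and the receptor and the other inhibitor higher. A gene was called when it changed 1.5-fold or more with P below 0.05 before adjustment, here in limma on log2(TPM + 1), and 11.8% of the 14356 genes tested were called. All 4 genes also passed at a Benjamini-Hochberg adjusted P under 0.05 over all genes tested, but none did when genes of low TPM were kept in the test. That adjusted threshold was also not held when either library labelled knockout was left out, which leaves a lone library in the group.

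PLAU fell from 92.4 and 85.7 TPM in the controls to 39.6 and 36.1 TPM under the knockout label. Both libraries labelled knockout were below both controls, and their means were 89.0 ± 4.72 TPM (SD, n = 2) for controls and 37.9 ± 2.46 TPM (SD, n = 2) for the label. PLAU changed by -1.21 on the log2 scale (standard error 0.10, limma adjusted P = 0.0113). PLAT, the other activator, had 43.3 and 42.0 TPM in control libraries and 39.3 and 41.2 TPM under the label. Its log2 difference of -0.08 (standard error 0.09, limma adjusted P = 0.589) did not pass the test.

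PLAUR rose from 69.3 and 66.0 TPM in control libraries to 124.7 and 124.6 TPM under the knockout label, a change of 0.87 on the log2 scale (standard error 0.08, limma adjusted P = 0.0152). The receptor thus rose in the same libraries in which its ligand urokinase fell. The ratio of PLAU to PLAUR within a library, which does not depend on the scaling of that library, was 1.33 and 1.30 in the controls and 0.318 and 0.290 under the label.

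SERPINE2 rose from 20.1 and 14.4 TPM to 53.2 and 48.5 TPM, with a log2 fold change of 1.52 (standard error 0.18, limma adjusted P = 0.021). SERPINB2 fell from 26.2 and 30.8 TPM to 12.3 and 13.2 TPM, with a log2 fold change of -1.10 (standard error 0.13, limma adjusted P = 0.0203). The inhibitors exchanged their order: SERPINE2 to SERPINB2 was 0.766 and 0.467 in the controls and 4.34 and 3.69 under the label. PLAU to SERPINE2 went from 4.60 and 5.95 to 0.745 and 0.744, so that the transcript of urokinase was above that of protease nexin 1 in the controls and below it under the label. PLAU to SERPINB2, which fell together, was 3.52 and 2.78 in the controls and 3.23 and 2.74 under the label, with overlapping values.

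Knockout and control values were fully separate for all 5 genes, PLAT included, and so they were for 60.2% of all genes tested. Over all genes tested the median log2 difference was 0.108, and median ratio scaling brought it to -0.018. With that scaling the log2 fold changes were -1.36 for PLAU, 0.72 for PLAUR, 1.38 for SERPINE2 and -1.24 for SERPINB2, and the same 4 genes were called. With all 12 libraries in one fit, SERPINE2 and SERPINB2 were no longer called (limma adjusted P = 0.251 and 0.525). The error of that fit includes the spread between line labels.

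Under the overexpression label, taken as a group of 6, 0 of the 5 genes were called by limma, where 1.93% of the 15768 genes tested were, and 1 of the 5, PLAT, had an unadjusted P under 0.05. PLAT had 93.6 and 70.4 TPM in the controls and between 107.7 and 124.4 TPM (median 117.9 TPM) in the 6 overexpression libraries, all above both controls. Groups that did not overlap, in either direction, were seen for 9.87% of the genes tested, among them PLAT (higher) and SERPINE2 (lower). The log2 difference of PLAT was 0.52 (standard error 0.11, limma adjusted P = 0.255), under the fold change threshold. Without the control of code series R17018 it was 0.72 and past both thresholds, with an adjusted P of 0.246 from limma. PLAT was above the control of its own code series by 0.25 to 0.41 on the log2 scale in R17018 and by 0.61 to 0.80 in R18019.

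PLAU and PLAUR were near the controls as a group. PLAU had 82.1 and 82.9 TPM in the controls and 65.7 to 114.3 TPM (median 86.2 TPM) in the overexpression libraries, which spanned the controls, with a log2 difference of 0.04 (standard error 0.19, limma adjusted P = 0.988). PLAUR had 166.6 and 125.8 TPM in the controls and 138.1 to 161.4 TPM (median 150.7 TPM) under the label, all between the 2 controls. Its log2 difference was 0.05 (standard error 0.12, limma adjusted P = 0.972).

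The inhibitors had large mean differences that did not pass, with a wide spread between line labels. SERPINE2 had 40.3 and 38.01 TPM in the controls and 5.31 to 32.9 TPM (median 20.4 TPM) under the label, all below the controls, for a log2 difference of -1.25 (standard error 0.67, limma adjusted P = 0.889). SERPINB2 had 2.24 and 1.998 TPM in the controls and 1.31 to 18.1 TPM (median 6.90 TPM) under the label, on both sides of the controls, for a log2 difference of 1.19 (standard error 0.81, limma adjusted P = 0.91). SERPINB2 had the thinnest evidence per base, with a coverage of 1.48 aligned bases per position in its lowest library.

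The line labels were therefore compared in a fit of the 4 groups of 2 libraries, with the 3 contrasts sharing the same controls. Between line labels, 3 of the 5 genes differed at an adjusted P under 0.05 in limma's F test, as did 16.0% of all genes tested: SERPINE2 (limma adjusted P = 1.53e-04), SERPINB2 (limma adjusted P = 2.62e-04) and PLAU (limma adjusted P = 0.0236). PLAT (limma adjusted P = 0.735) and PLAUR (limma adjusted P = 0.919) did not pass, with pairwise log2 differences of at most 0.13 (standard error 0.13) for PLAT and 0.08 (standard error 0.15) for PLAUR. PLAU no longer passed when any library of line label 79 or 86 was left out, and its adjusted P in limma ran from 0.0171 to 0.113 over the alternatives tried.

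SERPINE2 was at 21.3 and 19.5 TPM for line label 79, at 32.6 and 32.9 TPM for line label 86 and at 5.31 and 6.11 TPM for line label 87. Line label 87 was thus lowest and line label 86 nearest to the controls. The fall against the controls was called for line label 87, with a log2 fold change of -2.58 (standard error 0.09, limma adjusted P = 2.29e-04), and for line label 79, with -0.91 (standard error 0.09, limma adjusted P = 0.00301). For line label 86 the log2 difference of -0.25 (standard error 0.09, limma adjusted P = 0.316) was not called. The 3 pairs of line labels differed from each other, by 0.66 (79 below 86, limma adjusted P = 0.00739), 1.67 (79 above 87, limma adjusted P = 3.28e-04) and 2.33 (86 above 87, limma adjusted P = 2.46e-04) on the log2 scale.

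SERPINB2 ran in another order. It was at 1.31 and 1.66 TPM for line label 79, at 6.28 and 7.51 TPM for line label 86 and at 16.7 and 18.1 TPM for line label 87, with no overlap between the lines. It rose for line label 87, by a log2 fold change of 2.56 (standard error 0.13, limma adjusted P = 4.55e-04), and for line label 86, by 1.34 (standard error 0.13, limma adjusted P = 0.00807). For line label 79 the log2 difference was -0.33 (standard error 0.13, limma adjusted P = 0.189), and it was not called. The 3 pairs of line labels differed by 1.67 (79 below 86, limma adjusted P = 0.00125), 2.89 (79 below 87, limma adjusted P = 1.77e-04) and 1.22 (86 below 87, limma adjusted P = 0.00513). Fold changes of SERPINB2 near 2 TPM are understated by the added 1, and with an added 0.1 the log2 fold change for line label 87 was 2.98.

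**Figure D2:**
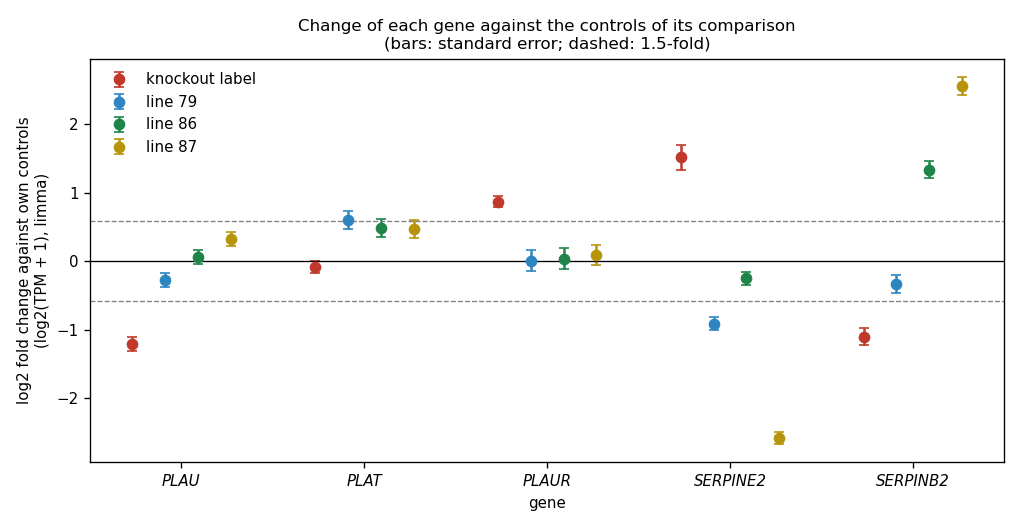
Log2 fold change of each gene against the controls of its own comparison (limma on log2(TPM + 1), points with standard errors, dashed lines at a 1.5-fold change) for the libraries labelled knockout and for line labels 79, 86 and 87, 2 libraries each. SERPINE2 ranged from -2.58 for line label 87 to 1.52 under the knockout label, and SERPINB2 from -1.10 under the knockout label to 2.56 for line label 87.

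PLAU followed the order of SERPINB2 over a smaller range, with 65.7 and 70.7 TPM for line label 79, 85.3 and 87.1 TPM for line label 86 and 93.8 and 114.3 TPM for line label 87. Line labels 79 and 87 differed by 0.60 on the log2 scale (limma adjusted P = 0.0151), while neighbours in that order did not pass (79 and 86, limma adjusted P = 0.0848, and 86 and 87, limma adjusted P = 0.215). No line label was called against the controls for PLAU, with log2 differences of -0.27 for 79, 0.06 for 86 and 0.32 for 87. PLAT was called for line label 79 alone, at 124.4 and 123.1 TPM (log2 fold change 0.60, standard error 0.13, limma adjusted P = 0.0403), while 86 (121.0 and 107.7 TPM, 0.49) and 87 (111.4 and 114.8 TPM, 0.47) lay under the fold change threshold. The call for line label 79 was lost without the control of code series R18019, where the log2 difference was 0.40, while without the control of R17018 PLAT was called for line labels 86 (0.69) and 87 (0.68) as well. In all, 2 genes were called for line label 79 (SERPINE2 and PLAT), 1 for line label 86 (SERPINB2) and 2 for line label 87 (SERPINE2 and SERPINB2), where 7.95%, 3.60% and 5.13% of all genes tested were called.

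The difference from the control of the same code series kept its sign in both series for PLAU, PLAT, SERPINE2 and SERPINB2 in each line label. For line label 87 it was -2.71 and -2.46 on the log2 scale for SERPINE2 and 2.45 and 2.67 for SERPINB2, in R17018 and R18019. PLAUR changed sign between the series in each line label, from -0.12 to 0.15 for 79, from -0.05 to 0.13 for 86 and from -0.05 to 0.23 for 87.

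**Figure D3:**
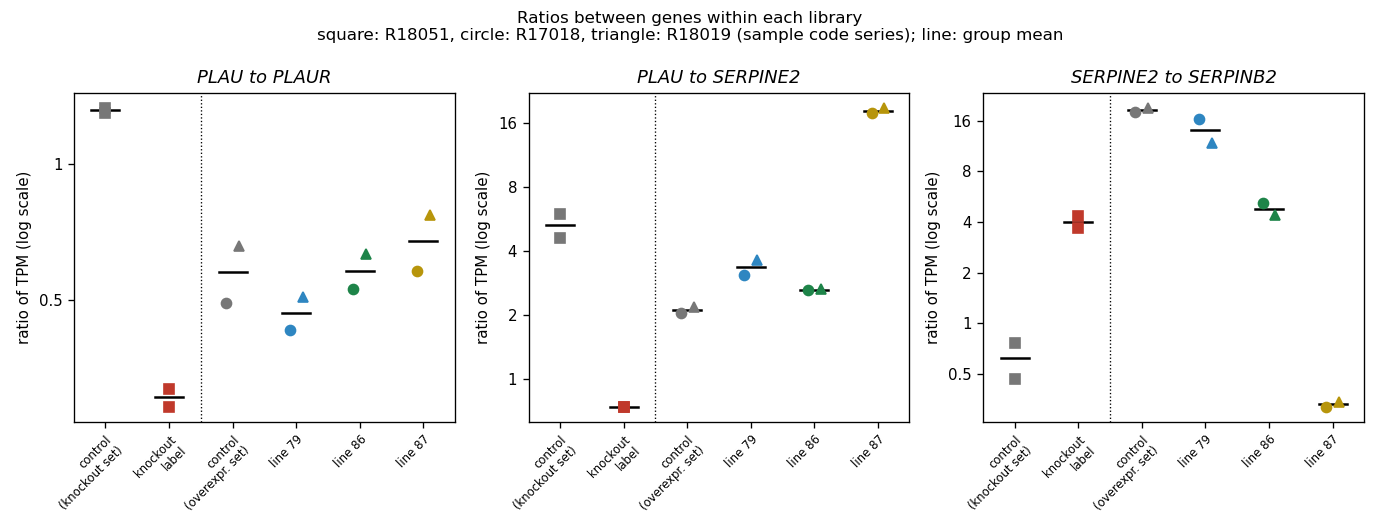
Ratios of TPM between genes within each library (log scale), with a point per library, its shape giving the sample code series, and a bar at the group mean. SERPINE2 to SERPINB2 was 17.97 and 19.0 in the controls of the overexpression comparison and 0.319 and 0.338 for line label 87. PLAU to SERPINE2 was 4.60 and 5.95 in the knockout controls and 0.745 and 0.744 under the knockout label.

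Within the overexpression set, SERPINE2 was the more abundant inhibitor in the controls, at 17.97 and 19.0 times SERPINB2, and in line labels 79 (16.2 and 11.7) and 86 (5.19 and 4.38), and the less abundant in line label 87 (0.319 and 0.338). Urokinase exceeded SERPINE2 by 2.04 and 2.18 times in the controls, by 2.62 and 2.65 times for line label 86, by 3.09 and 3.63 times for line label 79 and by 17.7 and 18.7 times for line label 87. PLAU to PLAT was 0.877 and 1.18 in the controls and 0.528 to 0.996 in the overexpression libraries. The untreated T24 cells of the 2 sets also differed in these ratios. PLAU to SERPINB2 was 3.52 and 2.78 in one pair of controls and 36.6 and 41.5 in the other, and SERPINE2 to SERPINB2 was 0.766 and 0.467 against 17.97 and 19.0. No test was made, since the kind of library and the culture cannot be told apart.

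The effects of the labels were compared directly in a fit of all 12 libraries, in which the comparisons share no control. The kind of library also differed between the 2 comparisons. Its part in a difference of effects cannot be told apart from that of the labels. PLAU and PLAUR differed between the knockout and the overexpression effect, by -1.25 (standard error 0.27, limma adjusted P = 0.0347) and 0.82 (standard error 0.17, limma adjusted P = 0.0273) on the log2 scale, as did 2.96% of the 16404 genes tested at an adjusted P under 0.05. SERPINE2 had the largest difference of the set at 2.77 (standard error 0.95, limma adjusted P = 0.152), followed by SERPINB2 at -2.29 (standard error 1.14, limma adjusted P = 0.316), and neither passed with the line labels pooled. PLAT differed by -0.60 (standard error 0.16, limma adjusted P = 0.0776), and passed with FPKM (-0.70, limma adjusted P = 0.0382), with median ratio scaling (-0.77, limma adjusted P = 0.0438) and without the R17018 control (-0.81, limma adjusted P = 0.0393). Leaving out any single library of the knockout comparison left 0 of the 5 genes past an adjusted P of 0.05 in limma, although PLAU and PLAUR each kept an unadjusted P under 0.05. Leaving out either overexpression control ended the call of PLAU (limma adjusted P = 0.123 without R17018 and 0.118 without R18019), as did leaving out the line label 87 library of R17018 (0.0525) or the line label 86 library of R18019 (0.0505). For PLAUR the call ended without the R17018 control (0.62 on the log2 scale, limma adjusted P = 0.0991) and with median ratio scaling (0.66, limma adjusted P = 0.0706).

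Other genes of the plasminogen system were read from a list of 22, of which 13 were tested in each comparison. PLG, the gene of plasminogen itself, was among the 9 genes under the TPM minimum in both comparisons, with VTN, SERPINF2, SERPINA5, A2M, CPB2, ST14, HPN and KLKB1. The genes that bind plasminogen at the cell surface were abundant. ANXA2 was at 1540.0 to 1840.0 TPM in the knockout comparison and 2890.0 to 5150.0 TPM in the overexpression comparison. Its partner S100A10 was at 153.0 to 212.0 TPM and 330.0 to 400.0 TPM, and the enolase ENO1 at 1660.0 to 2270.0 TPM and 5430.0 to 6750.0 TPM. None of the 3 was called in any comparison with controls at a fold change of 1.5.

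Under the knockout label 6 of the 13 genes were called, 5 up (TFPI2, LRP1, MRC2, IGF2R and SERPINI1) and 1 down (SPINT2), which is 46.2% of the list where 11.8% of all genes tested were called, with a median log2 fold change of 0.31 over the list against 0.11 over all genes tested. TFPI2, a secreted Kunitz inhibitor that acts on plasmin, rose from 64.4 and 70.8 TPM to 112.0 and 114.0 TPM (log2 fold change 0.73, limma adjusted P = 0.0227). LRP1, the endocytic receptor that clears complexes of urokinase and serpins, rose from 2.04 and 2.13 TPM to 7.43 and 5.06 TPM (log2 fold change 1.21, limma adjusted P = 0.0352). MRC2, a collagen receptor that associates with the urokinase receptor, rose from 26.8 and 25.4 TPM to 60.4 and 43.7 TPM (limma adjusted P = 0.0448). IGF2R, a lysosomal sorting receptor that also binds PLAUR, rose from 16.4 and 17.9 TPM to 38.3 and 28.3 TPM (limma adjusted P = 0.0467). SERPINI1, neuroserpin, an inhibitor of tissue-type activator, was low, at 0.675 and 1.04 TPM in the controls and 2.03 and 1.96 TPM under the label (limma adjusted P = 0.0601). SPINT2, a membrane Kunitz inhibitor, was at 16.3 and 22.3 TPM in the controls and 12.8 and 8.09 TPM under the label (limma adjusted P = 0.114).

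Under the overexpression label 1 of the 13 genes was called, TFPI2 (limma adjusted P = 0.587, and not called without either control), which is 7.69% of the list against 1.93% of all genes tested, with a median log2 fold change of -0.10 over the list against -0.02 over all genes. TFPI2 was at 90.4 and 90.6 TPM in the controls and higher in each line label, with 180.0 and 188.0 TPM for 79, 108.0 and 114.0 TPM for 86 and 198.0 and 205.0 TPM for 87. It was called for line labels 79 (limma adjusted P = 4.84e-04) and 87 (limma adjusted P = 4.70e-04) and not for 86 (limma adjusted P = 0.0858). For line label 79 it was the 1 gene of the list called (median -0.09), with 2 called without the R18019 control, and for line label 86 none was (median 0.08, with 0 of 13 genes called by limma and 3 at an unadjusted P under 0.05). Line label 87 had 4 called (median -0.23), or 30.8% of the list against 5.13% of all genes tested. TFPI2 rose, and LRP1 (3.70 and 3.22 TPM against 9.35 and 6.93 TPM in the controls, limma adjusted P = 0.0238), SPINT2 (18.3 and 18.9 TPM against 28.8 and 30.8 TPM, limma adjusted P = 0.00768) and MRC2 (55.6 and 60.4 TPM against 114.0 and 81.0 TPM, limma adjusted P = 0.101) fell. SERPINE2 and its clearance receptor LRP1 were thus both higher under the knockout label and both lower for line label 87, each against its own controls. They did not go together for line label 79, where SERPINE2 was called lower. There LRP1 was at 8.09 and 7.16 TPM, near the controls (log2 difference -0.07, limma adjusted P = 0.834).

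**Figure D4:**
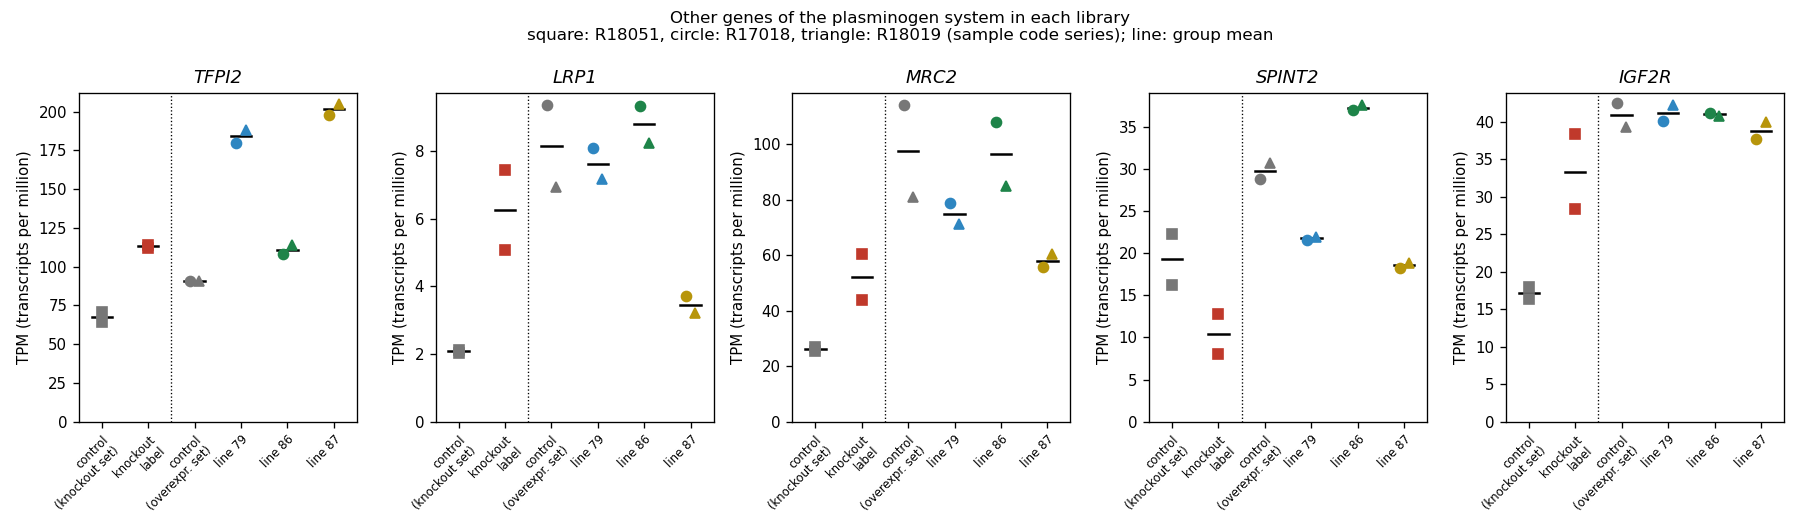
TPM of 5 other genes of the plasminogen system in each library (vertical axes start at 0), with a point per library, its shape giving the sample code series, and a bar at the group mean. TFPI2 was above its controls under the knockout label and in all 6 overexpression libraries, whereas LRP1 was above its controls under the knockout label and below them for line label 87.

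SERPINB2 lies in a cluster of clade B serpins on chromosome 18, and 12 other genes of this clade were listed, 5 of them tested in each comparison. In the knockout comparison and under the pooled overexpression label, 0 of the 5 were called by limma (2 and 0 at an unadjusted P under 0.05), with medians of 0.35 and 0.15. Leaving out a library brought the count to 2 without the first knockout control, to 1 without the second library labelled knockout, and to 1 under the overexpression label without the line label 87 library of R17018. SERPINB5 (maspin) rose for line label 86, to 51.1 and 54.9 TPM from 21.5 and 23.3 TPM in the controls (limma adjusted P = 0.00295), and for line label 79, to 36.0 and 37.8 TPM (limma adjusted P = 0.00603). SERPINB7, at 1.98 and 2.07 TPM in the controls, was called for line label 86 (3.48 and 3.93 TPM, limma adjusted P = 0.0553) and line label 87 (3.67 and 3.47 TPM, limma adjusted P = 0.0472). SERPINB8 was called for line label 87, at 52.3 and 50.7 TPM against 32.9 and 30.0 TPM (limma adjusted P = 0.196). The counts were 1 of 5 for line label 79, 2 of 5 for 86 and 2 of 5 for 87, where 7.95%, 3.60% and 5.13% of all genes tested were called, with medians of -0.26, 0.03 and 0.30. For line label 87 the count was 0 without its R17018 library or without the R17018 control, and 1 without its R18019 library or the R18019 control, and for line label 86 it was 1 without its R18019 library. SERPINB6 (35.9 to 110.0 TPM over all libraries) and SERPINB1 (8.81 to 21.5 TPM) were not called in any comparison with controls. The neighbours SERPINB3, SERPINB4, SERPINB10, SERPINB11, SERPINB12 and SERPINB13, and SERPINB9, were under the TPM minimum in both comparisons.

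AP-1 and ETS factors bind the control regions of PLAU and PLAUR, and 11 of their genes were tested. Under the knockout label, 2 were called up: JUNB, from 16.1 and 15.4 TPM to 39.9 and 39.0 TPM (limma adjusted P = 0.00945), and FOS, from 0.95 and 0.771 TPM to 2.50 and 1.56 TPM (limma adjusted P = 0.0975). These are 18.2% of the list, near the 11.8% called over all genes tested. The median was 0.13, and 1 gene was called without either library labelled knockout. FOSL1, the most abundant of them in the overexpression set at 246.0 to 370.0 TPM, had 74.7 and 71.2 TPM in the knockout controls and 61.7 and 58.5 TPM under the label (limma adjusted P = 0.125). ETS2 was the 1 gene called under the overexpression label (median 0.07), for line label 79 (median -0.09) and for line label 86 (median 0.10). It rose from 41.4 and 44.6 TPM in the controls to 115.0 and 129.0 TPM for line label 79 (limma adjusted P = 3.25e-04) and 83.8 and 81.7 TPM for line label 86 (limma adjusted P = 0.0054). For line label 79, 2 genes of the list were called without its R17018 library. The pooled call of ETS2 (limma adjusted P = 0.824) was lost without either control or any library of line label 79 or 86, with the replicate block, with the mean of each line label and without the filter on low values. For line label 87, 0 of the 11 were called by limma (2 at an unadjusted P under 0.05), with a median of 0.13. JUN was at 57.9 to 59.3 TPM in all 4 libraries of the knockout comparison and at 121.0 to 144.0 TPM in the other 8. FOSL2 (33.1 to 39.1 TPM and 72.2 to 87.0 TPM) and ETS1 (80.0 to 109.0 TPM and 114.0 to 208.0 TPM) were not called either.

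The genes whose log2(TPM + 1) was most like that of each gene over the 8 libraries of the overexpression comparison were sought among 11107 genes with a mean of at least 5 TPM. These correlations (Pearson's r) describe 8 libraries that share line labels and code series. As the highest of 11107 values over 8 libraries they can be high by chance, and they were not tested. SERPINE2 was most like MCAM (r = 0.9932), MFHAS1 (r = 0.9879) and THBS1 (r = 0.9812), and SERPINB2 most like TRIML2 (r = 0.9905), MPDZ (r = 0.981) and FRMD4A (r = 0.9805). PLAU was most like DTNBP1 (r = 0.9853), SPAG1 (r = 0.9768) and SHFM1 (r = 0.9747). PLAT was most like RHOC (r = 0.9732), LINC00630 (r = 0.9704) and PDGFA (r = 0.956), and PLAUR most like TECPR2 (r = 0.9564), CTC-338M12.4 (r = 0.9536) and CHMP6 (r = 0.94). Several of these genes had a narrow range, such as MFHAS1 (8.01 to 10.4 TPM), MPDZ (16.2 to 19.9 TPM), TECPR2 (8.71 to 11.1 TPM) and CHMP6 (41.8 to 46.7 TPM). Others had a wide range, such as THBS1 (48.2 to 202.0 TPM) and TRIML2 (18.8 to 65.9 TPM). Within the set, PLAU and SERPINB2 were the most alike (r = 0.884), and SERPINE2 and SERPINB2 the most opposed (r = -0.712).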

How the data were processed

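RNA was sequenced in 12 libraries of T24 cells. The sample labels give poly(A) RNA, whereas the study's methods describe ribosomal RNA depletion. The authors trimmed reads with Fastp, aligned them to hg38 with Hisat2 and ran Stringtie on each library. They deposited coverage (mean aligned bases per position), FPKM and TPM for each gene. Tool versions and the annotation release are not given in the sources used here. The differential test named in the methods needs read counts and was not run, since the deposited tables give normalized values. Error was estimated from library-to-library variation, as TPM gives no counting error.

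Groups came from the treatment labels, and code series and line labels from the titles. A gene entered a fit when 2 of its libraries or more reached 1 TPM. The fits used limma 3.58.1 (R 4.3.3; lmFit, then eBayes with trend) on log2(TPM + 1), with Benjamini-Hochberg adjustment over all genes tested. A call needed a 1.5-fold change and P below 0.05 before adjustment. The fit between line labels and the difference of effects were called at an adjusted P under 0.05. In simulated data, where 200 genes were given a 2-fold change, the knockout fit called 183 of them and 162 unchanged genes, the overexpression fit 196 and 123, and the fit between line labels 147 and 2. For the overexpression fit the simulated spread was only that within line labels. The 196 thus says nothing about genes that also differ between line labels, such as SERPINE2 and SERPINB2.

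The 5 genes and the 3 gene lists were chosen with earlier results of these data known. The text names these 5 genes, each list gene that was called or among the 4 highest of its list, and the 3 genes most like each of the 5. Alternatives were a pseudocount of 0.1, FPKM, median ratio scaling, no filter, no trend, a replicate block, all 12 libraries in one fit, means per line label, calls by adjusted P, and each library left out in turn. Leaving out line label 79 was added after seeing the data. Python 3.11.15, numpy 2.4.6, pandas 2.3.3 and matplotlib 3.10.9 were used.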

Additional observations from a re-analysis of the deposited data

Results flagged for a closer look

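SERPINE2, SERPINB2 and PLAU differed between line labels 79, 86 and 87, all of which carry the same overexpression label (limma's F test, adjusted P = 1.53e-04, 2.62e-04 and 0.0236, with 2 libraries per line label). SERPINB2, PLAU and the TPM of U11 had the same order over the line labels (79, then 86, then 87), while SERPINE2 did not, and no relation to U11 was tested. How well these libraries capture U11 was not tested either. Untreated T24 cells had 0.033 and 0.623 TPM of U11 in this set and 21.4 and 23.8 TPM in the knockout comparison. For PLAU the neighbours in that order did not differ at an adjusted P under 0.05.

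PLAU and PLAUR differed between the effects of the knockout and overexpression labels in the fit of all 12 libraries (limma adjusted P = 0.0347 and 0.0273), a difference that no longer passed when any single library of the knockout comparison was left out.

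Of the 26 genes screened for a library far from the others among the 6 overexpression libraries, 1 stood out. ETS1 was at 114.0 TPM in the line label 79 library of code series R18019 and at 188.0 TPM or more in the other 5, a gap of 0.859 of the whole range. About 1 in 20 such groups is marked by chance.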

How the results depend on the processing

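The 4 genes called in the knockout comparison remained called, with the same direction, under every alternative tried except all 12 libraries in one fit, which left 2. The count was 4 to 4 with each library left out, where a lone library was assumed to vary like the others. The smallest and largest adjusted P over these alternatives were 0.00177 and 0.134 for PLAU, 0.00355 and 0.164 for PLAUR, 5.63e-04 and 0.251 for SERPINE2 and 0.00617 and 0.525 for SERPINB2, the upper ends for PLAU and PLAUR coming from fits without the first library labelled knockout. In the overexpression comparison the count of 0 became 1 without line label 79 (SERPINB2, log2 fold change 1.95), and 0 to 1 with each library left out (PLAT). It was 1 to 2 for line label 79, 1 to 2 for line label 86, 2 to 3 for line label 87, 2 to 3 between line labels and 0 to 2 for the difference of effects with each library left out. Without the filter on low values 2 genes passed between line labels, and with FPKM 3 passed for the difference of effects. Also without that filter, the limma adjusted P in the knockout comparison was 0.0745 for PLAU, 0.0823 for PLAUR, 0.109 for SERPINE2 and 0.101 for SERPINB2. Reversed directions were seen where no call was made. With each library left out, PLAU in the overexpression comparison ran from -0.05 (without the line label 87 library of R18019) to 0.11. PLAUR ran from -0.15 to 0.25 in that comparison, from -0.19 to 0.22 for line label 79, from -0.16 to 0.24 for 86 and from -0.11 to 0.29 for 87, lowest without the R18019 control and highest without the R17018 control, and was also negative without the R17018 library of the line label itself (-0.06 for 79 and -0.07 for 86). The cause was not tested.

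Libraries share only a number or code series, not a stated origin. With the replicate block the counts were 4 in the knockout comparison, 0 in the overexpression comparison, 2, 1 and 2 for line labels 79, 86 and 87, and 3 between line labels. The block also ended the pooled overexpression call of ETS2. Deviations from group means correlated at 0.024 for the numbers of the knockout comparison and at 0.07 to 0.15 for the code series, where every library was closer to its own series. With the block, PLAUR and SERPINB2 had adjusted P of 0.0562 and 0.064 in the knockout comparison (limma). The replicate block was not run for the difference of effects.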
